A study of Mus musculus with 17 samples.

Results

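A list of 40 genes of epidermal differentiation and of the cornified envelope was followed in 17 mammary tumors of CUX1 transgenic mice. The genes were taken by name, and 39 of the 40 had a probe on the array by gene name or RefSeq accession, out of 28786 genes in all. Grhl3 had none by this rule. The brightest probe stood for each gene. These genes and the marker lists used below were chosen with earlier results of these data known. Their counts beside those of all genes are therefore not independent support for the label. In stratified epithelia, cells that leave the basal layer build a cornified envelope beneath the plasma membrane. Precursor proteins such as loricrin, involucrin and the small proline-rich proteins are joined to each other by transglutaminases, while suprabasal keratins and desmosomes hold the layer together. This program is a feature of skin and of squamous metaplasia, and the normal mammary ducts and alveoli do not cornify.

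The tumors arose in FVB mice that carry p75-CUX1 or p110-CUX1, 2 isoforms of the CUX1 transcription factor, under the MMTV promoter, which is active mainly in mammary epithelium. The labels give 4 adenosquamous carcinomas (p75-47, p75-80, p75-94 and p75-101), all from p75-CUX1 mice. The other 13 tumors are 9 solid carcinomas, 2 adenomyoepitheliomas, 1 adenocarcinoma and 1 adenoma, of which 5 come from p75-CUX1 mice and 8 from p110-CUX1 mice. Names join the transgene to the number of the mouse, no normal tissue is among the samples, and ages are not given. An adenosquamous carcinoma holds glandular and squamous parts, so the question asked here is whether the squamous program is visible in RNA of tumors so labelled, against all other types and against the other p75 tumors.

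Epithelial cells were captured by laser from frozen sections, and their RNA was amplified and hybridized on 2-color Agilent arrays against a common mouse reference RNA. Values are log2 ratios of tumor over reference, 1 per tumor from 2 or 4 arrays with swapped dyes. A probe counts as measured in a tumor if the scanner software marked its tumor color as well above background on each of the arrays. Where neither color is above background the ratio lies near 0, so a value near 0 of an unmeasured gene is a floor and not equality with the reference. Probes measured in a tumor ran from 18.3% to 61.9% of 41174. Lower RNA per cell and fewer cells of a type in the captured area cannot be told apart. All p75 tumors were scanned in one year and all p110 tumors in another, so transgene and scan year cannot be told apart over the 17 tumors, whereas the comparison inside p75 holds both fixed. A pair of tumors stood apart by markers. In p110-121 the summed signal of 14 luminal markers was 4088, against at least 134700 in every other tumor, and in p75-150 all 5 skeletal muscle markers were measured, with a summed signal of 421000 against at most 1532 elsewhere.

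The probes of 10 members lie on chromosome 3 between positions 92114279 and 93395662 (mm7, the build named in the scanner files), the epidermal differentiation complex, where Lor, Ivl, Flg and the Sprr genes are neighbors. Promoter windows from RefSeq (GRCm38.p6, 250 bases before to 50 after each start) were given in the table used for 24 of the 40 genes, in 28 windows. They were searched on both strands for TGANTCA, for TATAAA, and for AACCGGTT, the motif of grainyhead-like factors. TGANTCA takes in the AP-1 consensus TGAGTCA, which reads TGACTCA on the other strand, but also TGAATCA, which is not that consensus. TGANTCA matches were in 15 of the 28 windows, against 7.81% of all 32851 windows, and TGAGTCA matches in 9, against 5.2%. TATAAA matches were also in 15 of the 28, against 13.6% of all, and AACCGGTT was in none, against 0.146% of all. The Sprr genes are members of 1 gene family, so their windows are not independent, and the windows of Serpinb2 overlap and hold the same matches. TGANTCA and TATAAA stood together in 11 windows of 10 genes, against 1.54% of all windows, and TGAGTCA and TATAAA in 7 windows, against 0.941%. The 210 bases before the start are printed 5′ to 3′ for 6 of these 10 genes, with matches in capitals, to show that layout, and for Cnfn and Sfn, which hold neither motif. The 6 were chosen for the layout and do not stand for all members. Krt13 and Sbsn hold TGANTCA matches alone, Aqp3 holds TATAAA alone and Tgm1 holds neither.
Sprr1a (chr3:92485882-92486091, minus strand): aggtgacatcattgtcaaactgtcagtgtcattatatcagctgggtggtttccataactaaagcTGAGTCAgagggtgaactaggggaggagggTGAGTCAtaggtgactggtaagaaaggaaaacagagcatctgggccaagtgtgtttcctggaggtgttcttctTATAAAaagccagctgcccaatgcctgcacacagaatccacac
Sprr1b (chr3:92438780-92438989, minus strand): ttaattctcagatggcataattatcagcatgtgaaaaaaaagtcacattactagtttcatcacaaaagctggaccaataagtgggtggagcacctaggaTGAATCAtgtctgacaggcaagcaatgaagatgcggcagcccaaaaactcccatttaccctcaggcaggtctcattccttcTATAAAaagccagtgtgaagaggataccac
Sprr2d (chr3:92338930-92339139, plus strand): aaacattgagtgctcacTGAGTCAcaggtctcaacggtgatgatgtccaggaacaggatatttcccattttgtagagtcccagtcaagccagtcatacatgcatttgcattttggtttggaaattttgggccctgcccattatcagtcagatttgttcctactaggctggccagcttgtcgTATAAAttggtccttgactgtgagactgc
Sprr2h (chr3:92385475-92385684, plus strand): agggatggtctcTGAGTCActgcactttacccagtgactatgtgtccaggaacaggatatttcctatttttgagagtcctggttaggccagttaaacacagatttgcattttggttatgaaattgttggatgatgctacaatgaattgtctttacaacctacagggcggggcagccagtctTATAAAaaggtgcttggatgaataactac
Lor (chr3:92083143-92083352, minus strand): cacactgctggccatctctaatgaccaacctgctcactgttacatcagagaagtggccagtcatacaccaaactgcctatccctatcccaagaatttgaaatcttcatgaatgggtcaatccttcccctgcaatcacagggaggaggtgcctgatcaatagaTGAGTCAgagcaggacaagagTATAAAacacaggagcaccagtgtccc
Krtdap (chr7:30787695-30787904, plus strand): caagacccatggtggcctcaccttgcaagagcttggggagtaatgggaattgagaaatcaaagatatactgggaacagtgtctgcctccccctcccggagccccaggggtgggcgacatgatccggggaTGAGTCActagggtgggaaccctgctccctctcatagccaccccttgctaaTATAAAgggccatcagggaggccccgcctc
Cnfn (chr7:25369725-25369934, minus strand): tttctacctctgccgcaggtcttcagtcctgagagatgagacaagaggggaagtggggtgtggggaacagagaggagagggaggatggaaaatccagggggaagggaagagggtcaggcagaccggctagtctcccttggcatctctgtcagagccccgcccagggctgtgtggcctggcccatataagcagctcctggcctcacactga
Sfn (chr4:133602169-133602378, minus strand): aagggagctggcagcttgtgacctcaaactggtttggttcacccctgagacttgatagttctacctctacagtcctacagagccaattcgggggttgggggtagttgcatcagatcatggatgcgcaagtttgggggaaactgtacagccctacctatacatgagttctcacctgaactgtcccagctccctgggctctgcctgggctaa
In Sprr1a the TGANTCA matches begin at -146 and -116 from the start, in Krtdap at -81 and in Lor at -48, and in Sprr1b the match, at -111, is TGAATCA. In Sprr2d and Sprr2h they lie farther away, at -193 and -198, and each has TATAAA at -29. A match is a description of letters and not of binding.

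The members were not spread evenly over the 4 adenosquamous carcinomas. In p75-80, 19 of the 39 members lay above all 13 tumors of other types, where 6.01% of all genes did. In p75-94 it was 16 members, against 8.44% of all genes. In p75-47 it was 7 members, against 4.22%, and in p75-101 it was 4 members, against 6.09%. Thus p75-80 and p75-94 carried most of the high values, and p75-101 was close to tumors of other types in these members. The median over the 39 members was 2.95 in p75-80, 1.70 in p75-94, 0.28 in p75-47 and 0.01 in p75-101, and it lay between -0.04 and 0.24 in the 13 other tumors. Among these 4 tumors p75-80 was highest for 26 members, against 26.2% of all genes. The order p75-80, p75-94, p75-47, p75-101 held for 17 members, against 5.35% of all genes.

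**Figure D1:**
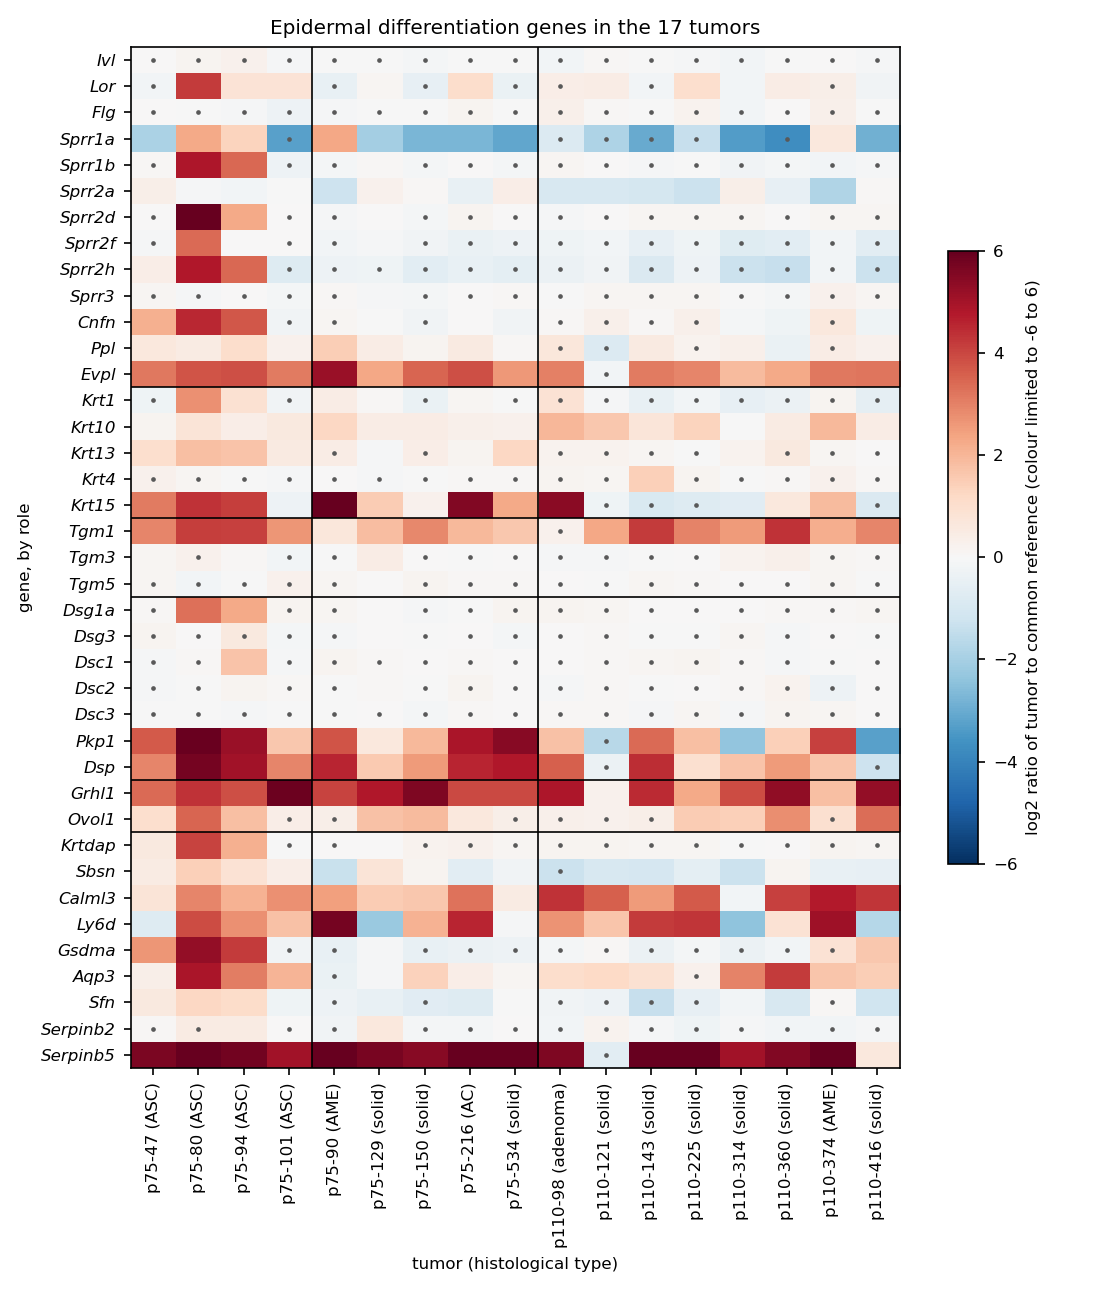
Log2 ratio of tumor over reference for the 39 genes (rows, by role, with lines between the roles) in the 17 tumors (columns, with lines between p75 adenosquamous carcinomas, other p75 tumors and p110 tumors). A dot marks a tumor in which the probe was not measured, colors end at -6 and 6, and ASC, solid, AME and AC stand for adenosquamous carcinoma, solid carcinoma, adenomyoepithelioma and adenocarcinoma. Sprr1b, Sprr2d, Dsg1a and Krtdap are red in p75-80 and p75-94 and near 0 in most other tumors, whereas Evpl, Tgm1, Grhl1 and Serpinb5 are red in most tumors of all groups.

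No member passed the test on group means. In the limma fit of 4 adenosquamous carcinomas against 13 others, 0 of the 39 members and 0 of 28786 genes (0%) had an adjusted p under 0.05, and the smallest adjusted p among members was 0.265, for Cnfn. At an unadjusted p under 0.05, 15 members were higher in adenosquamous carcinomas and 0 lower, against 4.07% of all genes higher. The median difference of the members was 0.78, against -0.01 over all genes, and 31 of 39 were above 0. By role, this unadjusted count was 7 of 13 envelope precursors, 5 of 9 secreted and other proteins, 2 of 5 keratins, 1 of 7 desmosomal genes, 0 of 3 transglutaminases and 0 of 2 transcription factors. Of the 15 members so counted, 7 were measured in fewer than 4 tumors and Ivl in none, so that their differences rest in part or wholly on values near background. Over all genes, 1173 were higher and 891 lower at this level. Within p75 (4 against 5), 0 members and 0 genes (0%) had an adjusted p under 0.05, with a smallest adjusted p of 0.878 among members. At an unadjusted p under 0.05, 8 members were higher and 0 lower, against 2.67% of all genes higher, and the median difference was 0.34, against -0.01. Sprr2f was the only member with every adenosquamous carcinoma above all other tumors, in both comparisons. Over all genes this held for 0.07% against the 13 others and for 0.796% within p75.

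One tumor decided the calls. Without p75-101, the limma fit of 3 adenosquamous carcinomas against 13 others called 73 of 28786 genes, and 6 of the 39 members were among them. These were Cnfn with an adjusted p of 0.000118, Gsdma with 0.000629, Sprr2h with 0.0181, Sfn with 0.0307, Krt13 with 0.033 and Krtdap with 0.0412. For each of these 6 members p75-101 was the lowest adenosquamous carcinoma. The p-values thus follow from which of the 17 tumors was left out, and they do not measure the label. Within p75 the same omission left 0 members called, 12 higher at an unadjusted p under 0.05 against 3.76% of all genes in that fit, and an adjusted p of 0.0765 for Gsdma and 0.105 for Cnfn. Leaving out any other tumor left 0 members called in both comparisons.

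**Figure D2:**
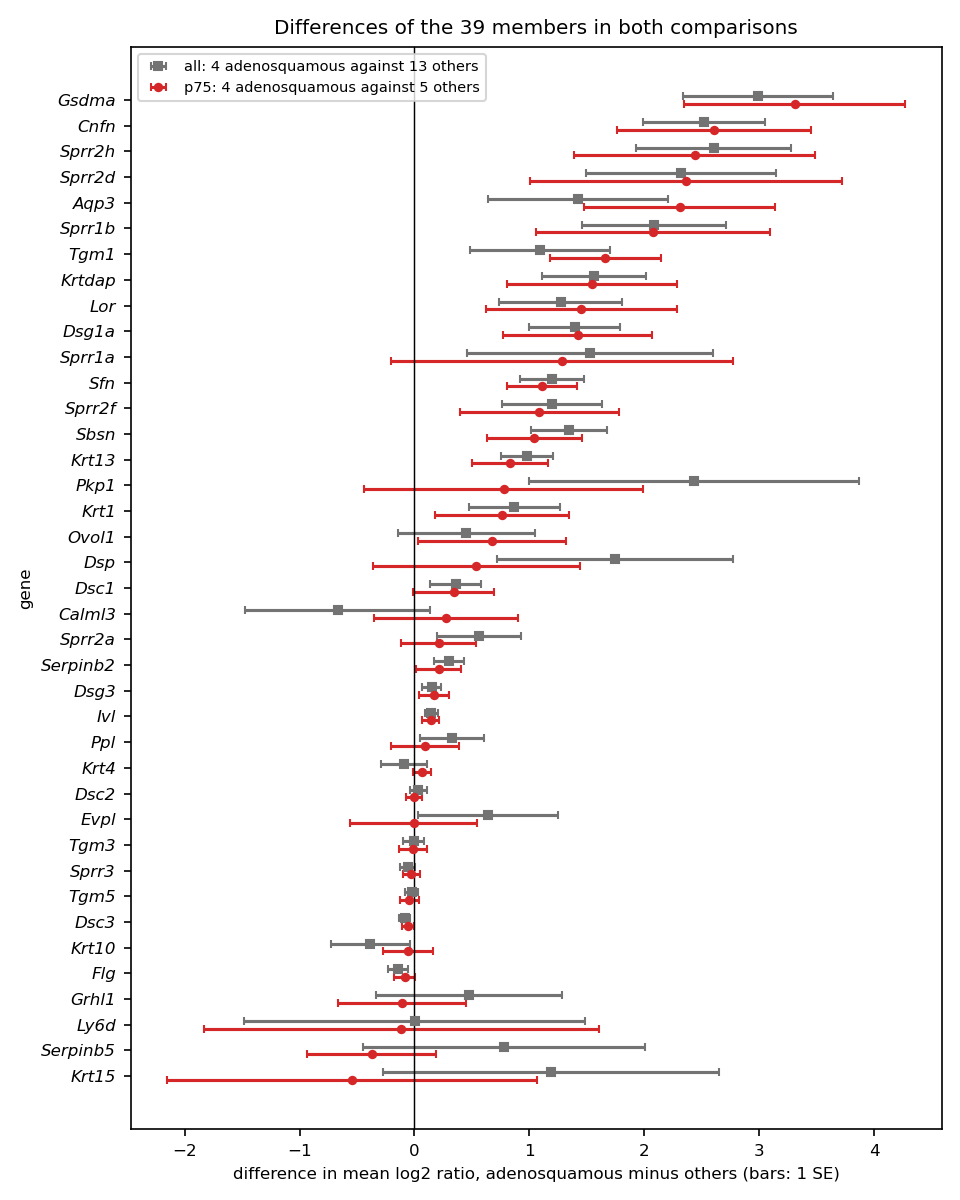
Difference in mean log2 ratio, adenosquamous carcinomas minus others, for the 39 members, with bars of 1 SE from the limma fit. Gray squares are 4 against 13 tumors and red circles are 4 against 5 p75 tumors. Gsdma, Cnfn and Sprr2h lie farthest to the right, and Krt15 and Pkp1 have the widest change between the comparisons.

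Among precursors of the cornified envelope, Cnfn encodes cornifelin, a component of the envelope. Its log2 ratio was 2.14 in p75-47, 4.52 in p75-80, 3.74 in p75-94 and -0.22 in p75-101. Of the 13 others 6 measured it, and their lowest value was -0.26, the median 0.01 and the highest 0.63 over all 13, so 3 of the 4 adenosquamous carcinomas lay above every other tumor and p75-101 lay among them. The difference was 2.61 ± 0.85 (SE) within p75 (adjusted p = 0.885 by limma) and 2.52 ± 0.53 over all tumors (adjusted p = 0.265).

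Sprr2h encodes a small proline-rich protein, whose repeats are cross-linked into the envelope. It was at 0.42 in p75-47, 4.81 in p75-80, 3.46 in p75-94 and -0.77 in p75-101. It was measured in the first 3 of these and on no array of the 13 others, which ran from -1.39 through a median of -0.46 to -0.17. Since it was not well above background in other tumors, its fold is a bound. The mean tumor signal of the 4 adenosquamous carcinomas was at least 4.14-fold that of the other p75 tumors (adjusted p = 0.896 by limma) and at least 4.03-fold that of all 13 others (adjusted p = 0.452). Without p75-80 the difference in log2 ratio was 1.49 in place of 2.44 within p75, and 1.66 over all tumors. The bound takes, on each array of the dim group, the higher of the lowest signal among probes above background and the probe's own.

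Sprr1b and Sprr2d, which were measured in only 2 adenosquamous carcinomas and fall outside the naming rule, are named here after their values were seen. Sprr2d was at 7.16 in p75-80 and 2.26 in p75-94, its value was 0.04 in p75-47 and 0.01 in p75-101, and the others reached at most 0.17. Sprr1b was at 4.84 in p75-80 and 3.46 in p75-94, and the others reached at most 0.11. Both were high in p75-80 and p75-94. Of the other 15 tumors p75-129 alone had both above background, at 0.03 for Sprr2d and 0.06 for Sprr1b. Sprr2f was at 3.41 in p75-80. Its separation of the groups otherwise rests on -0.06 in p75-47, 0.04 in p75-94 and 0.02 in p75-101, only the second of them measured, against -0.09 or less in other types. The chosen probes of 7 Sprr members share no run of bases longer than 10 of their 60. The probes were compared with each other and not with transcripts of the other Sprr genes, so cross-hybridization was not tested.

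Sprr1a and Lor were less tied to the label. Sprr1a was at -1.91, 2.27, 1.35 and -3.24 in p75-47, p75-80, p75-94 and p75-101. The adenomyoepithelioma p75-90 had 2.31, the highest value of all 17, and the median of the 13 others was -2.74. The difference within p75 was 1.29 ± 1.49 (SE, adjusted p = 0.922 by limma), smaller than its own error. Lor, which encodes loricrin, the main protein of the epidermal envelope, was at 4.21 in p75-80, 0.81 in p75-94, 0.82 in p75-101 and -0.16 in p75-47. The 13 others ran from -0.48 to 1.06, so p75-80 alone stood above them. Without p75-80 the difference of Lor within p75 was 0.52 in place of 1.45, and that of Sprr1a was 0.40 in place of 1.29. Without p75-90 the difference of Sprr1a was 2.28.

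Other precursors gave little contrast. Ivl (involucrin) and Flg (filaggrin, which bundles keratin filaments) were measured in 0 of the 17 tumors, and Sprr3 in 1, none of them adenosquamous. The plakins Evpl and Ppl, which link desmosomes to the envelope, were measured in 16 and 13 tumors. Evpl was at 3.12 to 3.87 in the adenosquamous carcinomas and reached 5.18 in p75-90. Its difference within p75 was -0.01 ± 0.55 (SE), so it is not set apart by the label. Sprr2a had 2 probes that disagreed. The brighter one was measured in all 17 tumors, with values from -1.81 to 0.40, and the dimmer one had 3.52 in p75-80 and 1.85 in p75-94, but also 1.72 in p110-416.

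**Figure D3:**
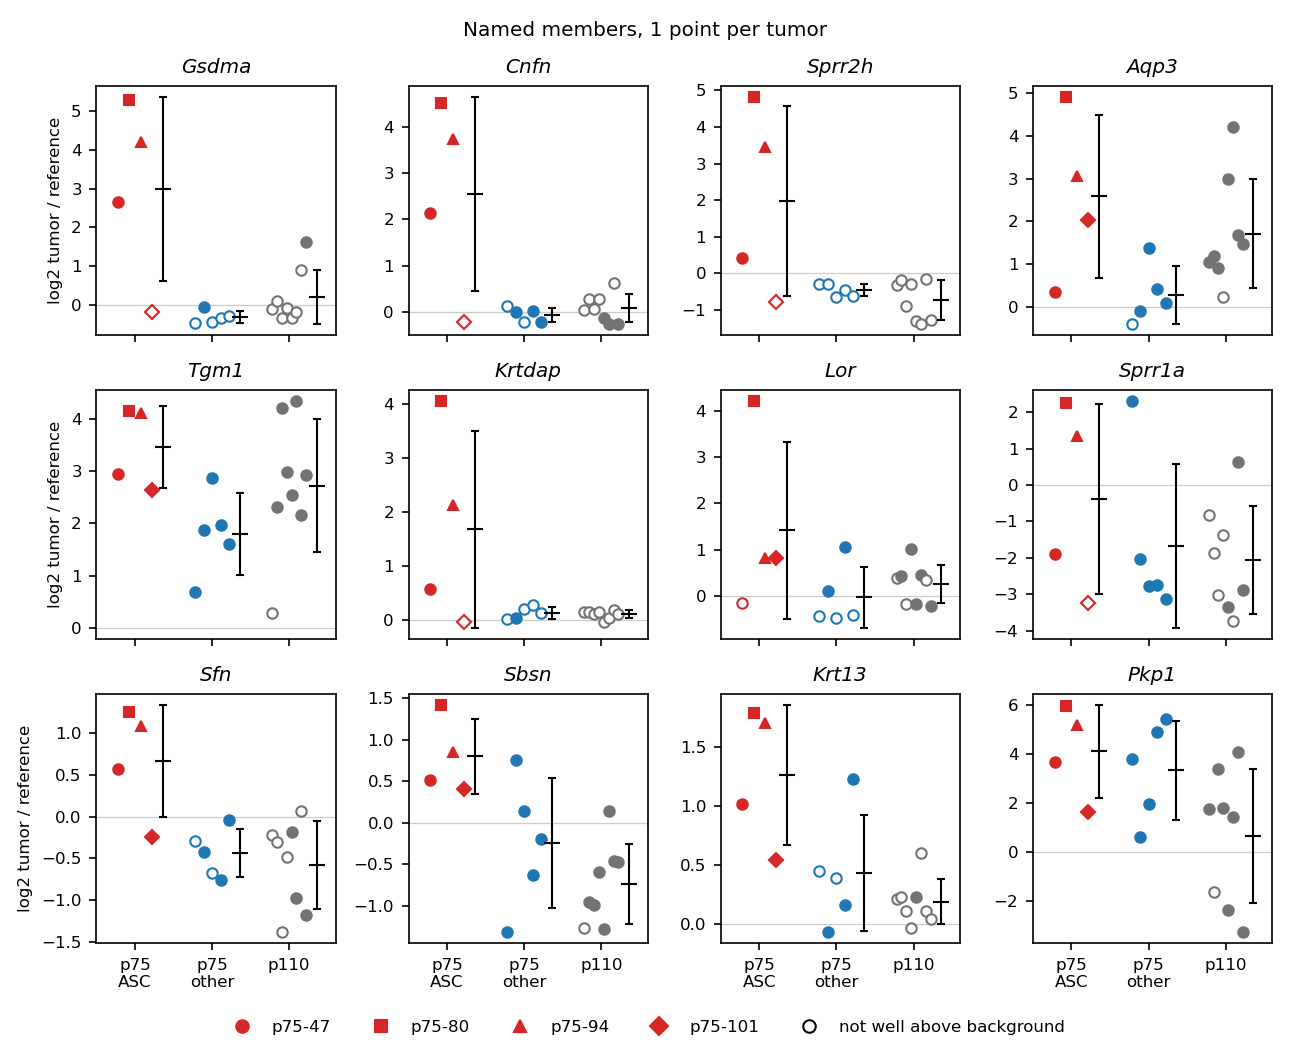
Log2 ratio of tumor over reference of the 12 members named by rule, 1 point per tumor, in the 4 p75 adenosquamous carcinomas (ASC, red, 1 marker shape per tumor), 5 other p75 tumors (blue) and 8 p110 tumors (gray). Open points were not measured, and black bars give the mean ± SD. In Cnfn and Gsdma the squares, triangles and red circles lie above all blue points, and the diamond of p75-101 lies among them.

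Of 9 secreted and other proteins, Gsdma had the largest difference within p75. It encodes a gasdermin expressed in epidermis and upper digestive tract. It was at 2.64 in p75-47, 5.28 in p75-80 and 4.20 in p75-94, and at -0.19 in p75-101, where it was not measured. Of the 13 others, p75-129 and p110-416 alone measured it. The highest of the 13 others were 1.61 in the solid carcinoma p110-416 and 0.88 in p110-374, and the median was -0.18. The difference was 3.31 ± 0.96 (SE) within p75 (adjusted p = 0.878 by limma) and 2.99 ± 0.66 over all (adjusted p = 0.304), against ratios that lie mostly at the floor. A second probe of Gsdma differed in the same direction, by 2.47 within p75.

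Krtdap encodes a secreted peptide of differentiating keratinocytes. It was at 4.05 in p75-80, 2.13 in p75-94 and 0.57 in p75-47, and at -0.04 in p75-101. The 13 others lay between -0.04 and 0.28, with a median of 0.13, and p75-129 alone of them measured the gene, as p75-101 did not. Thus 3 adenosquamous carcinomas were above every other tumor, and the difference within p75, against values at the floor, was 1.54 ± 0.74 (SE, adjusted p = 0.896 by limma). It was 0.75 without p75-80. Its second probe gave 5.38 in p75-80 and 3.80 in p75-94.

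Sbsn (suprabasin, a secreted protein of suprabasal keratinocytes) was at 0.51, 1.42, 0.86 and 0.41 in p75-47, p75-80, p75-94 and p75-101. The 13 others ran from -1.31 through -0.60 to 0.76, and p75-129 alone of them reached the range of the adenosquamous carcinomas. The difference was 1.04 ± 0.41 (SE) within p75 (adjusted p = 0.896 by limma). The second probe of Sbsn was measured in 0 tumors. Sfn (stratifin, a 14-3-3 protein of stratified epithelia) was at 0.58, 1.25, 1.09 and -0.24 in the same order, against -1.38 to 0.06 elsewhere. It was measured in the 4 adenosquamous carcinomas, 3 of the 5 other p75 tumors and 3 of the 8 p110 tumors. Part of the comparison is thus against values near background. The reference was above background on all 38 arrays, so these values are not at the floor as defined above. The difference of Sfn within p75 was 1.11 ± 0.31 (SE, adjusted p = 0.878 by limma). When every probe was averaged, the difference within p75 was 0.60 for Sfn and 0.48 for Sbsn, and over all tumors 0.64 and 0.66.

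Aqp3, a water and glycerol channel of basal keratinocytes, was at 0.35, 4.90, 3.06 and 2.04 in p75-47, p75-80, p75-94 and p75-101. The other p75 tumors ran from -0.40 to 1.37, but p110-360 had 4.21 and p110-314 had 2.98. The difference was 2.31 ± 0.83 (SE) within p75 (adjusted p = 0.896 by limma) and 1.43 ± 0.78 over all tumors (adjusted p = 0.718). Without p75-80 these were 1.54 and 0.65, and without p75-47 the second was 2.17. The remaining 4 members of this group gave less contrast. Serpinb5 (maspin) was between 5.05 and 7.49 in the adenosquamous carcinomas and was measured in 16 tumors of every type. Ly6d and Calml3 were highest outside the group, at 5.72 in p75-90 and 4.75 in p110-374, and Serpinb2, with a difference of 0.30 over all tumors, was measured in 2 tumors.

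Tgm1, the membrane-bound transglutaminase of keratinocytes, was expressed in nearly all tumors. It was at 2.95, 4.15, 4.11 and 2.64 in p75-47, p75-80, p75-94 and p75-101. The other p75 tumors had values from 0.68 to 2.87, and p110 tumors from 0.28 to 4.34. Within p75 the difference was 1.66 ± 0.48 (SE, adjusted p = 0.878 by limma), and over all tumors it was 1.09 ± 0.61 (adjusted p = 0.72). Tgm3 was measured in 5 tumors and Tgm5 in 1, and neither exceeded 0.46.

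Of 7 desmosomal members, Pkp1 (plakophilin 1) and Dsp (desmoplakin) were measured in 16 and 15 tumors. Pkp1 was at 3.69, 5.95, 5.18 and 1.64 in p75-47, p75-80, p75-94 and p75-101, and the other p75 tumors ran from 0.62 to 5.45, so the ranges overlapped widely. The difference of Pkp1 was 0.78 ± 1.22 (SE) within p75 and 2.43 ± 1.43 over all tumors (adjusted p = 0.942 and 0.731 by limma). With 1 tumor left out the difference of Pkp1 within p75 ran from 0.10, without p75-129, to 1.60, without p75-101. Dsg1a, a desmoglein of upper epidermal layers, was named after its values were seen. It was at 3.32 in p75-80 and 2.25 in p75-94, and at most 0.19 in the other 15 tumors. Dsc1, a desmocollin of upper layers, was at 1.72 in p75-94 and was measured in no other tumor. Dsg3 was measured in 1 tumor, Dsc2 in 2 and Dsc3 in 0.

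Of the 5 keratins, Krt13, of internal stratified epithelia, was at 1.01, 1.79, 1.70 and 0.54 in p75-47, p75-80, p75-94 and p75-101. The 13 others ran from -0.07 through 0.21 to 1.23, the last in the solid carcinoma p75-534. The probe was measured in the 4 adenosquamous carcinomas, 3 of the 5 other p75 tumors and 1 of the 8 p110 tumors. Most values of the other types are thus near background, and the reference was above background on 16 of 38 arrays. The difference was 0.83 ± 0.33 (SE) within p75 and 0.98 ± 0.22 over all tumors (adjusted p = 0.896 and 0.336 by limma). A second probe of Krt13 was measured in 1 tumor, and with the mean of both the differences were 0.41 and 0.47. With signals processed by the scanner software they were 1.42 and 1.75. Krt1, a suprabasal keratin, was at 2.74 in p75-80 and 0.92 in p75-94, and at most 0.86 elsewhere. Krt10, the partner of Krt1, had 2 probes that disagreed. The brighter, measured in all 17 tumors, gave 0.16 to 0.75 in the adenosquamous carcinomas and up to 2.00 in the adenoma p110-98. The other, measured in 9, gave 2.05 in p75-80, the highest of the 17, and differed by 0.80 over all tumors where the brighter differed by -0.38. In all, the probes of 7 of 15 members with several probes differed in sign over all tumors. Krt15, a keratin of basal cells, was highest in p75-90 at 7.22 and lowest of the adenosquamous carcinomas in p75-101 at -0.30. Krt4 reached 1.45 in p110-143 and was measured in no adenosquamous carcinoma.

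The transcription factors were not set apart. Grhl1 was measured in all 17 tumors, at 3.39 to 5.88 in adenosquamous carcinomas, and had its highest value in p75-101, where Cnfn, Sprr1b, Sprr2d and Sprr2h were not measured. A second probe of Grhl1, measured in 15 tumors, had 4.37 in p75-101 and was highest in p110-416 at 5.00. It differed by -0.16 over all tumors, where the brighter probe differed by 0.47. Ovol1 was at 3.49 in p75-80, but at 3.34 in p110-416. Their differences within p75 were -0.11 ± 0.56 and 0.68 ± 0.65 (SE).

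Scan days paired 3 adenosquamous carcinomas with a p75 tumor of another type, p75-80 with p75-90, p75-94 with p75-129 and p75-101 with p75-150. Within these pairs Cnfn differed by 4.40, 3.74 and 0.00, and Gsdma by 5.75, 4.27 and 0.27. In all 3 pairs 15 members were higher in the adenosquamous tumor, against 12.1% of all genes. Of these 15, only Dsp, Sbsn, Calml3 and Aqp3 were measured in both p75-101 and p75-150. The sign of the others in that pair rests on 1 or more unmeasured values, and Ivl was measured in no tumor. Neither Cnfn nor Gsdma was measured in p75-90, p75-101 or p75-150. For Gsdma the tumor color was above background on no array of these tumors. Its first difference is thus against a tumor signal at the floor, and its last is between such signals. For Cnfn the reference was above background on all 38 arrays and the tumor color on at least 1 array of each p75 tumor. Cnfn there is thus dim, but not at the floor as defined above.

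Tumors with more probes measured mostly had more members measured. The tumor with most members measured was p75-129, a solid carcinoma, with 33 of 39 and 61.9% of probes, followed by p75-94 with 32 and 47.9%. In p75-80, 28 members were measured with 31.4% of probes, and in p75-101 it was 17 with 34.8%. In p110-314 it was 21 with 51.8% and in p110-416 it was 18 with 44.3%. High ratios did not follow the same order, since 22 members exceeded a log2 ratio of 2 in p75-80 and 17 in p75-94, but 3 in p75-129.

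**Figure D4:**
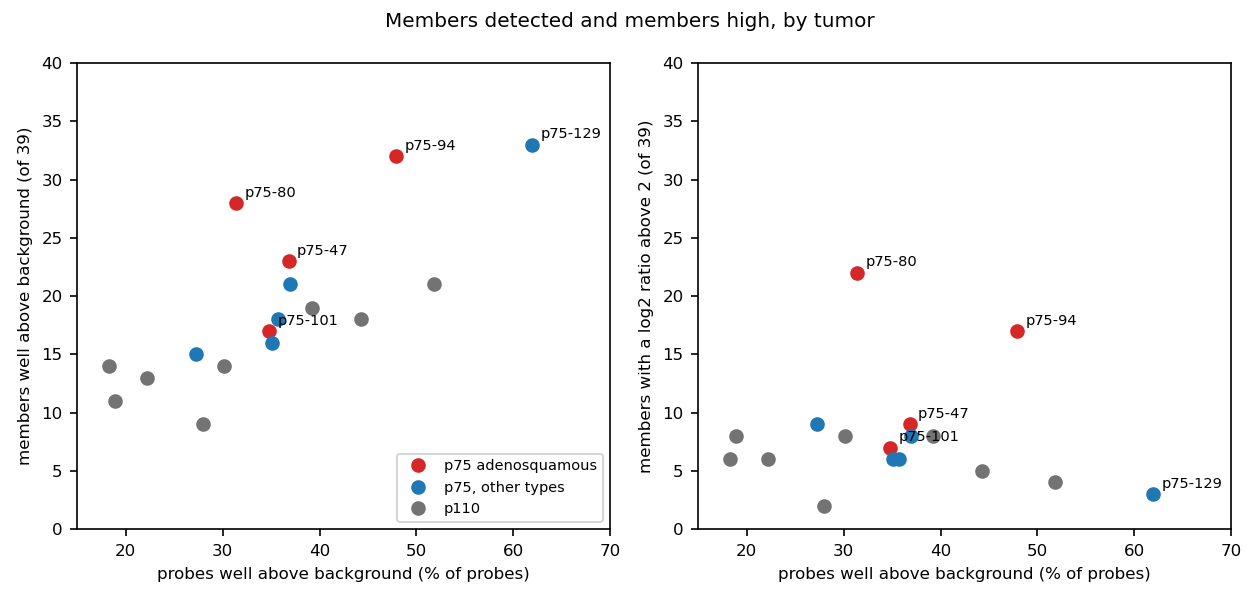
Members measured (left) and members with a log2 ratio above 2 (right), of 39, against the percentage of probes measured in each of the 17 tumors. On the left, p75-129 and p75-94 are highest, with 33 and 32 members. On the right, p75-80 and p75-94 stand apart with 22 and 17, and the other tumors have 2 to 9.

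A further list of 74 epidermal differentiation genes had 24 members (32.4%) higher and 0 lower at an unadjusted p under 0.05 over all tumors, against 4.07% of all genes higher, and 10 (13.5%) and 0 within p75, against 2.67%, with 0 called after adjustment in both (smallest adjusted p = 0.151 and 0.878 by limma). Its median difference was 0.29 over all tumors and 0.21 within p75, against -0.01 over all genes. Like the members, this list was chosen with earlier results of these data known, so its excess is not independent support. A few of its genes are named after their values were seen. Krt14, a keratin of basal keratinocytes and of myoepithelial cells, which also stands in the list of basal markers, was at 5.57, 7.79, 5.56 and 4.56 in p75-47, p75-80, p75-94 and p75-101, and at most 4.25 elsewhere, so all 4, p75-101 included, lay above the 13 others. Its difference was 3.21 over all tumors and 2.53 within p75 (adjusted p = 0.268 and 0.878 by limma). The other basal markers did not share this. Of the 11 in that list, 6 were above 0 and 5 below in each comparison, with median differences of 0.09 and 0.19. In each comparison 1 of the 11 was higher at an unadjusted p under 0.05 and 0 lower. Krt16, a keratin of activated keratinocytes, was at 5.78, 7.67, 5.46 and -0.60 in p75-47, p75-80, p75-94 and p75-101, and at most 2.89 elsewhere. Lce3f, a late cornified envelope gene, was at 5.05 in p75-80 and 4.79 in p75-94, and at most 0.21 elsewhere. Tchh, trichohyalin of the hair follicle sheath, was at 3.15, 8.18, 8.43 and 0.73 in p75-47, p75-80, p75-94 and p75-101, but also at 5.87 in p110-416, 4.35 in p110-360 and 3.17 in p110-143.

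Of 18 markers of hair follicle and sebaceous gland, 6 were higher over all tumors and 3 within p75 at an unadjusted p under 0.05, against 4.07% and 2.67% of all genes, with 0 lower and 0 called. Of these markers 8, 9, 12 and 4 were measured in p75-47, p75-80, p75-94 and p75-101, with summed signals of 12990, 73210, 92440 and 5535. In the other p75 tumors 4 to 10 were measured, with sums of 4001 to 10670, and in p110 tumors 1 to 7, with sums of 3818 to 12430, so p75-80 and p75-94 stood well above, p75-47 just above and p75-101 among the others. Padi3, a peptidylarginine deiminase of hair follicles, was measured in all 4 adenosquamous carcinomas, at 1.94, 6.10, 5.81 and -1.40 in the same order, and also in 4 of the 5 other p75 tumors, with 2.12 in p75-90, and in 2 p110 tumors. Named after their values were seen, Krt27 of the inner root sheath was at 2.79, 2.89, 5.45 and 0.25 in that order, and Krt31, Krt86 and Mc5r were measured in no tumor. Of the further epidermal genes, Krt2 and Flg2, of upper epidermal layers, were measured in no tumor. Luminal markers had sums of 390600, 267700, 134700 and 588700 in that order, and 319600 to 698600 in the other p75 tumors. In each comparison 11 of 14 were below 0 (median difference -0.26 over all tumors and -0.42 within p75), with 0 at an unadjusted p under 0.05. Basal markers had sums of 330000, 703700, 332800 and 170000 in that order, 100800 to 476800 in the other p75 tumors and 13620 to 771300 in p110 tumors. Immune markers had mean log2 ratios of 0.94, 1.13, 1.30 and 0.23 in that order, against -0.52 to 0.43 in the other p75 tumors and -0.83 to 2.71 in p110 tumors. Of 12 immune markers, 3 were higher and 1 lower at an unadjusted p under 0.05 within p75, and their summed signals overlapped, at 135100 to 278800 against 21650 to 245200. Over all tumors 6 were above 0 and 6 below, with a median difference of -0.03. S100a8 and S100a9 stand in both the immune and the further epidermal list. Within p75, 9 of 10 fibroblast markers (median difference 0.39) and 5 of 6 adipocyte markers (0.73) were above 0, with 0 of either at an unadjusted p under 0.05. Summed fibroblast signals were 34870 to 175400 in the adenosquamous carcinomas and 15900 to 111300 in the other p75 tumors, and summed adipocyte signals 3871 to 339200, the last in p75-101, and 924.7 to 108800. The part of these markers in the differences of the members was not tested.

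**Figure D5:**
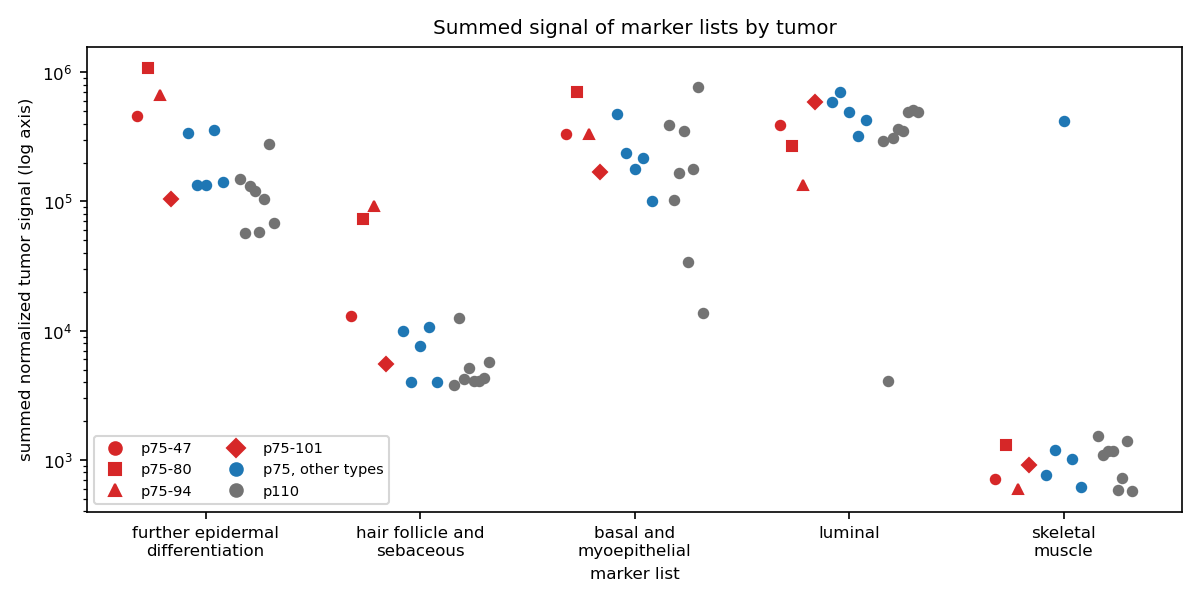
Summed normalized tumor signal (log axis) of 5 marker lists in each tumor, with red symbols for the 4 adenosquamous carcinomas, blue for other p75 tumors and gray for p110. For the further epidermal and the hair follicle lists, p75-80, p75-94 and p75-47 lie above all tumors of other types, and p75-101 lies among them.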

How the data were processed

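RNA of laser-captured epithelial tumor cells was hybridized by the authors, after 2 rounds of amplification, with a common reference on 2-color Agilent arrays. The deposited scanner files hold intensity and background values from Feature Extraction, not normalized, and spot marks. The deposited value table, in log2 of tumor over reference, served as an alternative. Mean signals were corrected by normexp with an offset of 50, normalized by loess within each of 38 arrays, turned by dye and averaged per tumor, using limma 3.58.1 under R 4.3.3 (statmod 1.5.0 for blocks). Outlier spots (0.545%) and controls were left out, and 0 member spots were saturated. Loess assumes that most genes do not differ. The brightest probe stood for a gene. Differences were tested with limma (lmFit, eBayes, Benjamini-Hochberg over 28786 genes, adjusted p under 0.05). The code was tested on simulated data. Each tumor is 1 animal by its label and gives 1 value, so the number of tumors and their spread limit the precision.

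The members and lists were chosen with earlier results of these data known. Named were members called in either comparison and then, up to 12, those measured in at least 3 adenosquamous carcinomas, by absolute difference within p75. Called genes of the further epidermal list, of which there were 0, were to be named, and of the lists of other cell types a gene only where measured in every tumor of 1 group. Genes outside these rules are marked as named after their values were seen. Alternatives covered background correction, normalization, probe choice, dye, filter, variance model, slide, scan day, transgene, comparison group and each tumor left out. The tumor color alone and scan day as a fixed block, and the counts at an unadjusted p were added after seeing the data. No protein sequences were analysed here.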

Additional observations from a re-analysis of the deposited data

Results flagged for a closer look

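Gsdma in the solid carcinoma p110-416 had a log2 ratio of 1.61, far above the other 8 solid carcinomas, the nearest of which had 0.09. This gap was 0.737 of the group's whole range. Of 24 groups of 12 named members in adenosquamous and solid carcinomas, 1 was flagged for a stray tumor, where chance gives about 1 in 20. Lor, at 4.21 in p75-80 and at most 0.82 in the other adenosquamous carcinomas, was not flagged by the rule used.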

How the results depend on the processing

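In both comparisons 0 members were called under every alternative other than leaving out a tumor. Of 682 refitted differences of the 12 named members, 6 passed the threshold, all without p75-101. With a tumor left out, members called ranged from 0 to 6 over all tumors and 0 to 0 within p75, genes called from 0 to 73 and 0 to 2, members at an unadjusted p under 0.05 from 12 to 18 and 4 to 12, and the median member difference from 0.47 to 1.10 and 0.13 to 0.78. The 4 was without p75-94, 12 without p75-47 or p75-101, and 5 without p75-90 or p75-216, against 2.73% to 4.59% of all genes over all tumors and 2.01% to 3.76% within p75 in those fits. Genes called over all tumors were 5 with signals processed by Feature Extraction, 2 with arrays scaled to the same spread, 22 with each histological type as a group and 1 with the tumor color alone. Members at an unadjusted p under 0.05 were 8 of 24 over all tumors with probes measured in at least 4 tumors (4.83% of all genes in that fit), and 4 within p75 against solid carcinomas alone (1.88%). The cause was not tested. With scan day as a fixed block within p75, 6 members were higher at an unadjusted p under 0.05, against 2.49% of all genes. Signals processed by Feature Extraction gave larger differences within p75 for Sprr2h (4.83), Krtdap (2.65), Lor (2.44) and Sfn (1.77). Over all tumors, the transgene as a covariate gave 2.31 for Aqp3, 1.66 for Tgm1 and 0.78 for Pkp1. Within p75, solid carcinomas alone as the comparison gave 2.26 for Sprr1a, 0.56 for Sbsn and 1.45 for Pkp1, and the fixed block gave 2.22 for Lor and 2.14 for Pkp1. No paired analysis by replicate number was possible because the labels number mice, and pairs by scan day stand with the comparisons above. Signal over background limits 15 members measured in fewer than 4 tumors.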
